A study of Drosophila melanogaster with 9 samples.

Results

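The piRNA pathway and nuage genes are 32 genes of Drosophila melanogaster, listed by name from the pathway. The list was chosen with earlier results of these arrays known. The array annotation paired 30 of them with a probe set of their own, out of 11982 genes measured. The other 2, arx (the Gtsf1-type zinc finger protein that works with Piwi) and egg (the histone H3K9 methyltransferase eggless), were not analysed here. PIWI-interacting RNAs (piRNAs) are small RNAs that guide Argonaute proteins of the PIWI family to transposon transcripts, and in the fly ovary they keep transposons silent. In germ cells, the proteins that amplify piRNAs by mutual slicing (the ping-pong cycle) gather around the nucleus in a granule called nuage. Other members make piRNA precursors from genomic clusters, cut them at the surface of mitochondria, or carry Piwi-directed silencing to chromatin.

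Transcripts were measured as the log2 signal of Affymetrix Drosophila_2 probe sets in total RNA of wild type flies, OGA mutant flies and SXC mutant flies, with 3 arrays for each and 9 in all. Oga encodes the enzyme that takes O-GlcNAc, a sugar mark, off proteins, and sxc the transferase that puts it on. The series title connects O-GlcNAcase with egg production that responds to nutrition. The labels give the genotypes as WildType, OGA mutant and SXC mutant and name no allele, stage, tissue or age. They do not say whether replicates came from separate animals, so p-values measure the spread between these arrays, which may be technical.

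The check of the labels held for both mutants: Oga read 8.84 ± 0.08 (SD, n = 3) in the OGA mutant against 9.90 ± 0.22 in wild type, and sxc read 10.35 ± 0.02 in the SXC mutant against 11.83 ± 0.04. Array medians lay between 5.96 and 6.04. On the first principal component, SXC mutant replicate 1 stood farthest out (22.65, against 13.04 and 10.45 for replicates 2 and 3). It was also the lowest of the 9 arrays for 13 of the 30 members and the highest for 4. Among 5 control pairs, each a 3′ and a 5′ probe set, both pairs for GAPDH had a larger mean 3′ minus 5′ difference on the SXC arrays, but by unequal amounts. It was 2.94 against 2.05 in wild type and 2.11 in the OGA mutant for 1 pair, and 1.15 against 0.99 in wild type for the other, while the 3 pairs for 18S rRNA, actin and eIF-4a moved by 0.09 or less between SXC and wild type. Between the mutants, the 18S rRNA pair was 1.46 in OGA against 1.18 in SXC. The actin pair was −0.03 against 0.03, and the eIF-4a pair 0.15 against 0.21. The part of this in the results below was not tested. The median SD within groups was 0.10 for the members, as for all genes.

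On all 9 arrays, 27 of the 30 members had mean signals between 8.14 and 12.21 in each group, and the remaining 3, vas, tej and qin, lay lower. Levels of different probe sets cannot be ranked as amounts of RNA. The 3 control probe sets for trpn, which match no fly gene, read 3.94 to 4.59 and give a background for comparison. vas, the DEAD-box helicase of nuage and a standard germline marker, read 4.65 to 5.01, just above that range on every array. Its lone probe set carries an older gene identifier, and the part of the transcript it matches was not looked up here. Of 12 measured germline markers, 9 also had mean signals under 6, among them nanos (4.44 to 5.11), orb (4.07 to 4.38), otu (4.09 to 4.55), ovo (4.08 to 4.43) and bam (4.73 to 5.12). osk, which organises germ plasm at the posterior of the oocyte, read 5.67 to 6.32, whereas grk, which encodes the oocyte ligand Gurken, read 11.08 to 11.61. exu (8.66 to 9.38) and gcl (9.08 to 9.46), which act in localising bcd RNA and in forming germ cells, were also far above the controls, and 3 of the 12 had means under the highest control value. Of 12 measured markers of ovarian follicle cells, 5 had means under 6 and 1, the yolk protein gene Yp1 (4.45 to 4.83), a mean under the highest control value. The others lay above the controls, among them tj, the somatic gonad transcription factor, at 6.28 to 6.79, the chorion gene Cp38 at 7.25 to 7.56 and the yolk protein gene Yp3 at 7.19 to 7.79. The markers named here, other than nanos, grk and BicC, were singled out after their values were seen. No tissue is named in the labels against which to check these signals.

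**Figure D1:**
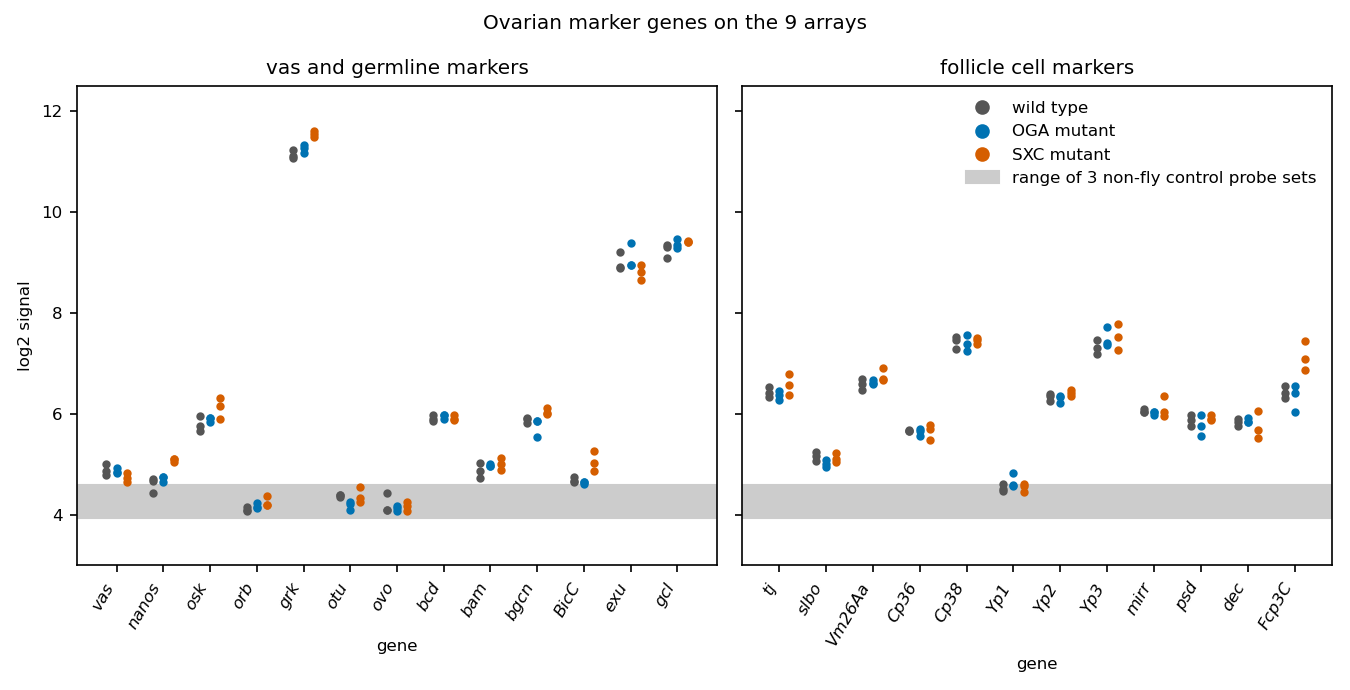
Log2 signal (vertical axis) of vas and the germline markers (left) and of the follicle cell markers (right) on each of the 9 arrays, coloured by genotype. The grey band is the range of the 3 non-fly control probe sets (3.94 to 4.59); orb, otu and ovo lie inside it on every array, vas lies just above it, and grk lies at 11.08 to 11.61.

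SXC mutant arrays were first set against the wild-type arrays, to ask which members differ where the O-GlcNAc transferase gene is mutated. Of the 30 measured members, 8 changed (limma, with p-values adjusted over all genes by the Benjamini-Hochberg method and called under 0.05), which is 26.7%, where 12.9% of all genes changed. There were 5 that fell (background 7.84%): squ, zuc, fs(1)Yb, Panx and rhi. There were 3 that rose (background 5.09%): wde, tej and armi. The remaining 22 did not pass. With quantile normalization 8 members also changed, 4 higher and 4 lower, but only 6 of them were the same: tej (limma adjusted p = 0.0576) and rhi (0.0874) did not pass, and spn-E (0.0439) and tapas (0.0316) rose. The groups did not overlap for 13 members, against 32.7% of all genes, with 8 of them lower and 5 higher in the mutant. Over the 30 members the median log2 difference was −0.06 and its median size 0.16, against −0.01 and 0.10 over all genes. The members were chosen with earlier results of these arrays known, so these counts describe the list and do not set it apart. In bulk RNA, fewer cells of a type and less RNA per cell cannot be told apart.

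**Figure D2:**
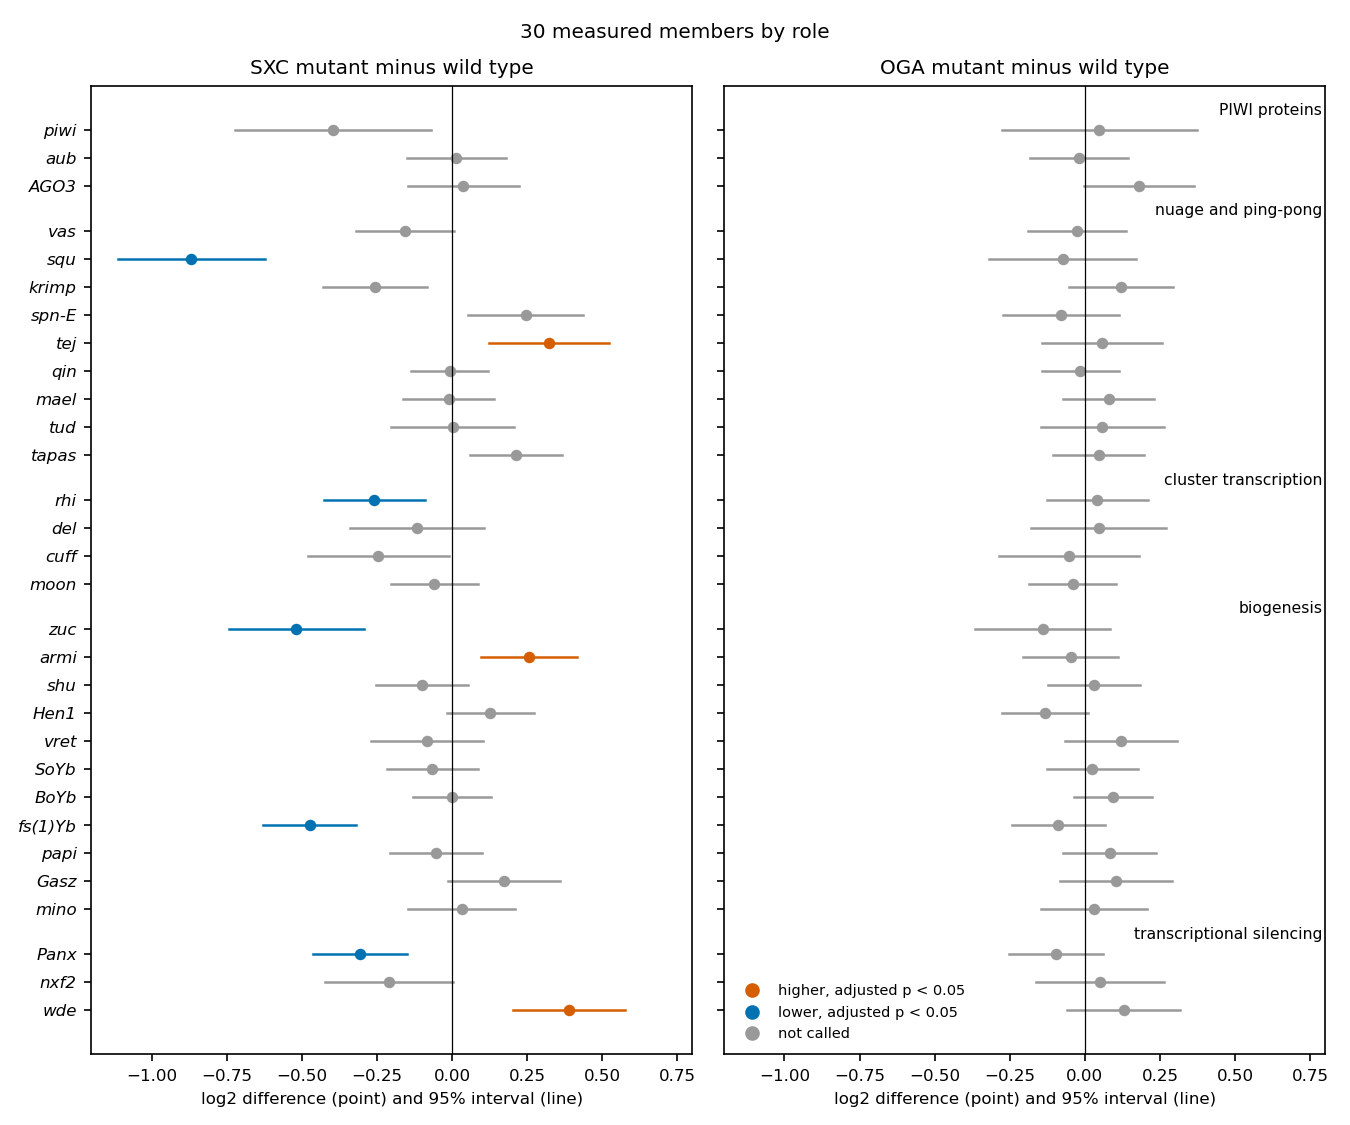
Log2 difference from wild type (horizontal axis; point, with its 95% interval as a line) of the 30 measured members, grouped by role, in the SXC mutant (left) and the OGA mutant (right). In the SXC mutant 5 members are lower and 3 higher at an adjusted p under 0.05, with squ the farthest from zero at −0.87; in the OGA mutant none is called and every point lies between −0.14 and 0.18.

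Among the PIWI proteins none passed. piwi, the nuclear Argonaute that acts in germ cells and in the somatic cells of the gonad, read 9.91, 9.87 and 10.11 on the wild-type arrays, 10.20, 9.80 and 10.04 on the OGA arrays and 9.22, 9.62 and 9.86 on the SXC arrays. The SXC arrays were all below the wild-type arrays, but they were widely spread (SD 0.32), and the difference of −0.40 (SE 0.15) did not pass (limma adjusted p = 0.1095). Without SXC mutant replicate 3 it was −0.54 and passed (adjusted p = 0.0351). aub (Aubergine) and AGO3, the paired slicers of the ping-pong cycle, gave differences close to zero. Their 95% intervals were −0.15 to 0.18 for aub and −0.14 to 0.22 for AGO3. Differences larger than these limits lie outside the intervals, and smaller ones are not excluded. The level of aub was 11.07 ± 0.09 (SD, n = 3) in wild type and 11.08 ± 0.02 in the SXC mutant, and that of AGO3 9.95 ± 0.07 and 9.99 ± 0.14.

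The nuage and ping-pong genes held the largest fall and a smaller rise. squ (squash), a nuage protein that binds Aub, read 11.40, 11.36 and 11.51 in wild type, 11.38, 11.33 and 11.35 in the OGA mutant, and 10.25, 10.66 and 10.76 in the SXC mutant. Every SXC array lay below every other array. squ fell 1.82-fold, a log2 difference of −0.87 (SE 0.11) with a limma adjusted p of 0.00126. It was the 35th most negative of all 11982 genes, and without SXC mutant replicate 1 the difference was −0.71. tej (tejas), a LOTUS and Tudor domain protein that works with Vasa, read 5.65, 5.82 and 5.60 in wild type, 5.72, 5.78 and 5.74 in the OGA mutant, and 6.08, 5.81 and 6.15 in the SXC mutant. SXC mutant replicate 2 lay within the wild-type range, so these groups overlap, and the signals are low throughout. Its rise was 0.32 (SE 0.09, 1.25-fold, adjusted p = 0.0386).

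Of the other 7 nuage genes none passed in the SXC mutant, though krimp and tapas each passed under 4 of 19 alternatives (adjusted p 0.0206 to 0.0479 and 0.0276 to 0.0478) and spn-E under 1. krimp (krimper), a Tudor protein that scaffolds nuage and binds AGO3, came nearest. It read 10.50, 10.48 and 10.61 in wild type, 10.72, 10.55 and 10.68 in the OGA mutant and 10.16, 10.25 and 10.41 in the SXC mutant, with no overlap between SXC and the other groups (−0.26, SE 0.08, adjusted p = 0.0570). spn-E (Spindle E), a helicase with a Tudor domain, read 10.08, 10.05 and 9.89 in wild type, 10.04, 9.96 and 9.78 in the OGA mutant and 10.21, 10.16 and 10.38 in the SXC mutant. Here too the SXC arrays stood above the rest, with a difference from wild type of 0.25 (SE 0.09, adjusted p = 0.0950). tapas, a relative of tejas, read 9.49, 9.50 and 9.44 in wild type, 9.62, 9.56 and 9.40 in the OGA mutant and 9.69, 9.64 and 9.74 in the SXC mutant. Its difference was 0.21 (adjusted p = 0.0694) without overlap, but its dimmer probe set gave −0.09 in the same comparison, so the probe sets of tapas disagree. mael (Maelstrom, which acts in silencing downstream of Piwi), tud (Tudor, the namesake of the domain) and both probe sets of qin (an E3 ligase and Tudor protein of the ping-pong cycle) differed by about 0.01 or less, and vas by −0.16 (adjusted p = 0.216). The dimmer probe set of qin read 4.28 to 4.52, within the range of the non-fly controls, so its lack of change says little.

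Transcription of germline piRNA clusters rests on rhi (Rhino, a relative of HP1), which binds cluster chromatin with del (Deadlock) and cuff (Cutoff), and on moon (Moonshiner), which starts transcription there. All 4 had negative differences in the SXC mutant, and only rhi passed. rhi read 9.91, 9.69 and 9.74 in wild type, 9.84, 9.72 and 9.90 in the OGA mutant and 9.47, 9.50 and 9.59 in the SXC mutant. The SXC arrays were below all others, by a difference from wild type of −0.26 (SE 0.08, adjusted p = 0.0490). cuff read 8.60, 8.27 and 8.28 in wild type, 8.20, 8.35 and 8.44 in the OGA mutant and 7.99, 8.15 and 8.28 in the SXC mutant. Its highest SXC array lay among the wild-type values, and the difference of −0.24 did not pass (adjusted p = 0.170). The differences of del (−0.12, adjusted p = 0.542) and moon (−0.06, adjusted p = 0.647) were smaller.

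Among the genes of piRNA biogenesis, 2 fell and 1 rose of 11 measured. Over all genes 7.84% fell and 5.09% rose, and for a list this short the counts are only a description. zuc (Zucchini), the mitochondrial nuclease that cuts precursors into phased piRNAs, read 9.45, 9.38 and 9.28 in wild type, 9.15, 9.43 and 9.12 in the OGA mutant and 8.67, 8.91 and 8.98 in the SXC mutant. All SXC arrays were lower than the rest, and zuc fell 1.43-fold (log2 −0.52, SE 0.10, limma adjusted p = 0.00851). fs(1)Yb, the Tudor and helicase protein that forms Yb bodies in somatic cells of the ovary, read 10.18, 10.05 and 10.08 in wild type, 10.08, 9.97 and 9.99 in the OGA mutant and 9.53, 9.63 and 9.73 in the SXC mutant. It fell 1.39-fold (−0.47, SE 0.07, adjusted p = 0.00239), with tight groups and no overlap. armi (Armitage), the helicase that brings precursors to Zucchini, went the other way: it read 11.21, 11.11 and 11.21 in wild type, 11.19, 11.15 and 11.04 in the OGA mutant and 11.37, 11.37 and 11.55 in the SXC mutant. The rise was 0.26 (SE 0.07, 1.19-fold, adjusted p = 0.0403), and its SXC arrays were above all others.

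SoYb and BoYb, which encode Yb-like proteins, did not pass, with differences of −0.07 (interval −0.22 to 0.09) and 0.00 (interval −0.13 to 0.13). The other biogenesis members, none of which passed, were shu (Shutdown, a co-chaperone for loading PIWI proteins, −0.10), Hen1 (the methyltransferase that modifies piRNA 3′ ends, 0.13), vret (Vreteno, a Tudor protein, −0.08) and papi (a mitochondrial Tudor protein, −0.05). The mitochondrial scaffold gene Gasz gave 0.17, and mino, which encodes the acyltransferase Minotaur, gave 0.03. Hen1 was the member of this group whose arrays still separated, at 8.47, 8.46 and 8.49 in wild type and 8.66, 8.51 and 8.62 in the SXC mutant (adjusted p = 0.259); on the OGA arrays it read 8.26, 8.42 and 8.35.

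In transcriptional silencing, Panx fell and wde rose. Panx (Panoramix), which links Piwi on nascent transcripts to the silencing machinery, read 10.24, 10.09 and 10.02 in wild type, 10.07, 10.05 and 9.94 in the OGA mutant and 9.77, 9.84 and 9.82 in the SXC mutant. The SXC values were below all others and close together, and Panx was 1.24-fold lower (log2 −0.31, SE 0.07, adjusted p = 0.0175). nxf2, the export factor relative that partners with Panoramix, read 9.33, 9.13 and 9.12 in wild type, 9.11, 9.16 and 9.45 in the OGA mutant and 8.99, 8.89 and 9.07 in the SXC mutant. The groups did not overlap, yet the difference of −0.21 (SE 0.10) did not pass (adjusted p = 0.202), except with array quality weights (0.0446). wde (Windei), the cofactor of Eggless, read 9.28, 9.22 and 9.27 in wild type, 9.23, 9.49 and 9.44 in the OGA mutant and 9.78, 9.53 and 9.63 in the SXC mutant. It rose 1.31-fold (0.39, SE 0.08, adjusted p = 0.0133), again with no overlap. The 15 members whose arrays are not all listed ran from −0.16 (vas) to 0.17 (Gasz), and none passed.

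**Figure D3:**
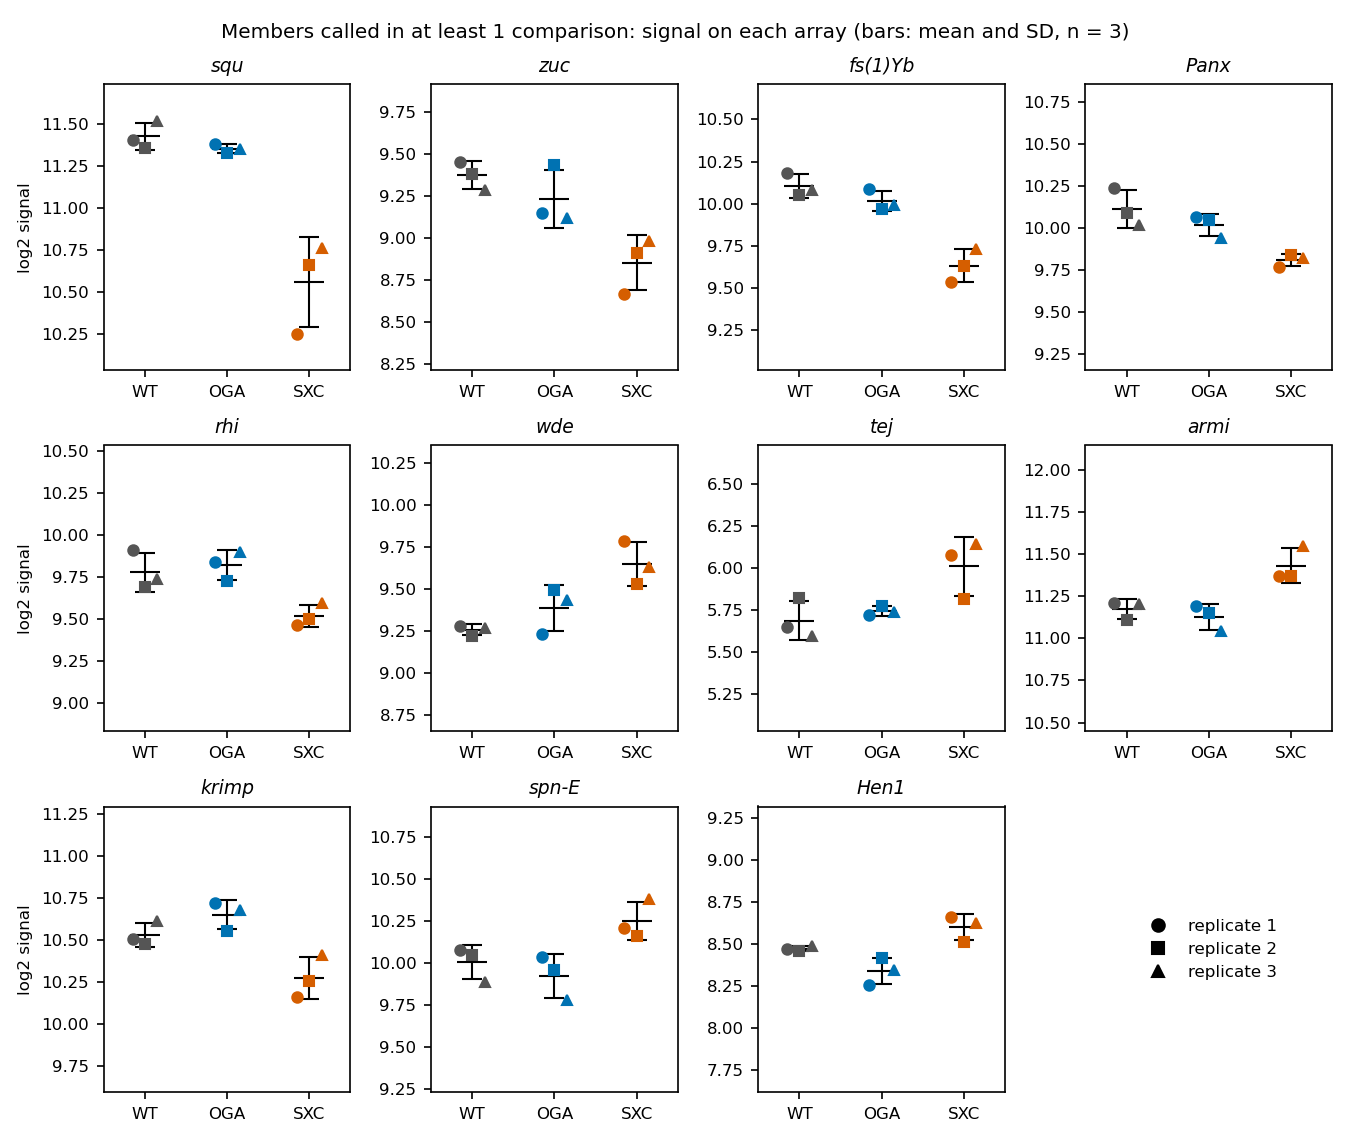
Log2 signal (vertical axis, the same height in every panel) on each array of the 11 members called in at least 1 comparison, by genotype (WT, wild type; OGA and SXC, the mutants); markers give the replicate number, and bars the mean and SD of 3 arrays. SXC arrays lie below the other groups for squ, zuc, fs(1)Yb, Panx, rhi and krimp, and above them for wde, armi, spn-E and Hen1, while for tej SXC mutant replicate 2 (5.81) lies within the wild-type range.

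The calls differed in how far they rested on 1 array. squ, fs(1)Yb, zuc and wde passed with any of the 9 arrays left out (limma adjusted p at most 0.0486, for wde without 1 array), and Panx did not pass when replicate 1 of wild type (adjusted p = 0.0770) or of the SXC mutant (0.0574) was left out. For tej the call was lost when replicate 1 (0.132) or 3 (0.121) of wild type, 1 (0.0501) or 2 (0.0550) of the OGA mutant, or 1 (0.122) or 3 (0.121) of the SXC mutant was left out. armi did not pass without any one of the wild type (0.0907, 0.144 and 0.0740 for replicates 1 to 3) or SXC arrays (0.0571, 0.0674 and 0.131), nor without OGA mutant replicate 2 (0.0572). For rhi the call was lost without any one of the wild type (0.192, 0.0601 and 0.0807 for replicates 1 to 3) or SXC arrays (0.140, 0.130 and 0.0573), and also without OGA mutant replicate 1 (0.0624) or 2 (0.0528). Leaving out an array also added calls: tapas passed without OGA mutant replicate 3 (0.0356), and piwi (0.0351) and krimp (0.0301) passed without SXC mutant replicate 3. The number of members changed was 4 without replicate 1 of wild type or the SXC mutant, where 5.54% and 7.48% of all genes changed. It was 5 without OGA mutant replicate 2 or wild type replicate 3 (11.7% and 9.45% of all genes). Without OGA mutant replicate 3 it was 9 (14.6% of all genes).

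**Figure D4:**
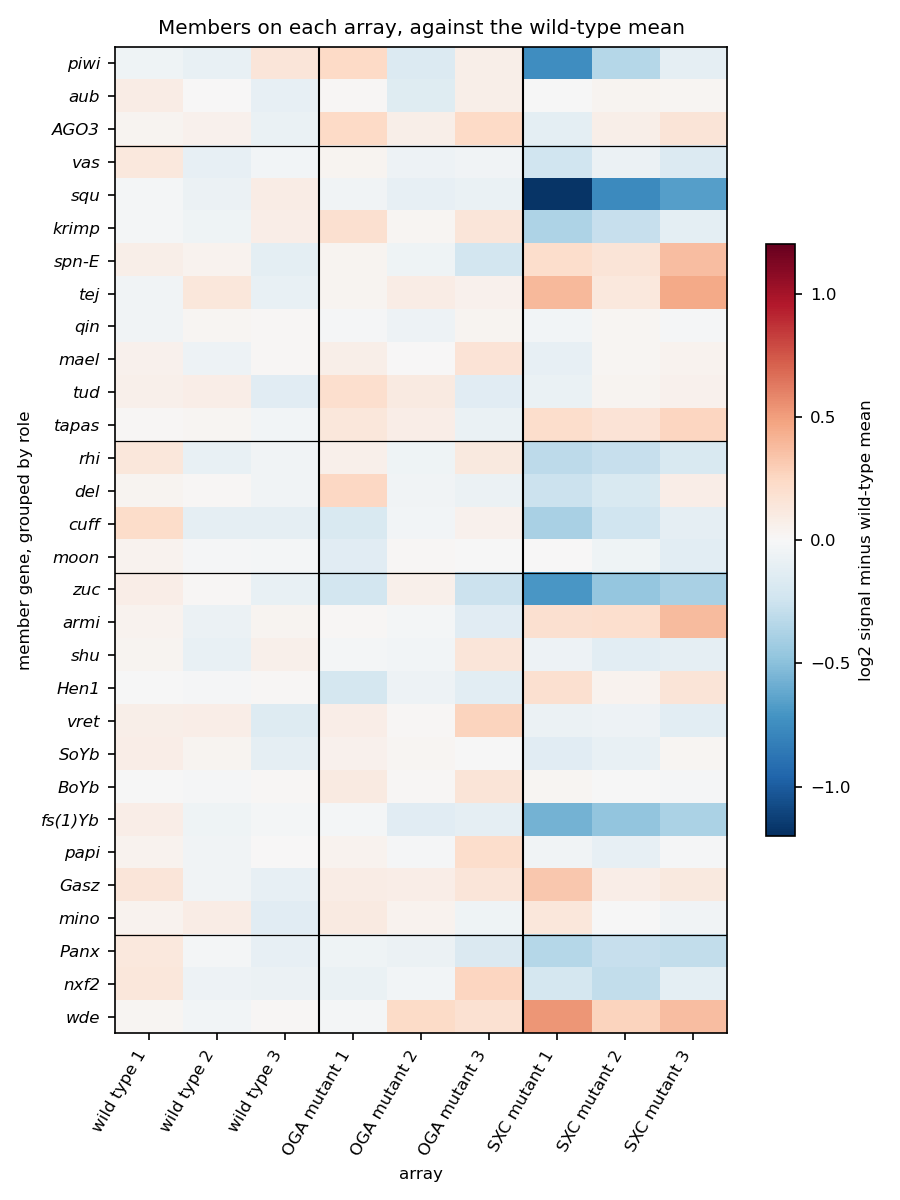
Log2 signal of the 30 measured members (rows, grouped by role) on each array (columns), as the difference from the mean of the wild-type arrays (colour, blue for lower and red for higher). The SXC arrays carry the deep blue of squ, zuc and fs(1)Yb and the red of wde and tej, with SXC mutant replicate 1 the lowest of the 9 arrays for 13 members.

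Position and length were also set beside the changes. The members lie on 5 chromosome arms, and the changed ones on 2L (squ, zuc), 2R (Panx, rhi, wde, tej), 3L (armi) and X (fs(1)Yb). The genes that fell were 1600 bp (squ), 1148 bp (zuc), 1987 bp (Panx), 3691 bp (fs(1)Yb) and 5026 bp (rhi) long as RefSeq gene spans, and those that rose 2251 bp (tej), 4998 bp (armi) and 8519 bp (wde). Across 11899 genes, which are not independent replicates, the difference between SXC mutant and wild type correlated with the log of gene length (r = 0.18). For the OGA mutant against wild type, where no member changed, r was 0.26, and between the mutants it was −0.07. A correction for gene length, chosen after the data were seen, left 7 of the 8 members changed, and armi did not pass (limma adjusted p = 0.0511).

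Next, OGA mutant arrays were set against the wild-type arrays, where the gene of O-GlcNAc removal is mutated. None of the 30 members changed by limma, where 0.00835% of all genes did. That share is 1 gene, Oga itself, so the count does not set the members apart. Of the members, 0 had an unadjusted p under 0.05 (468 of all genes did). The ordinary linear model without moderation also called 0. The differences ran from −0.14 (zuc, interval −0.37 to 0.08) to 0.18 (AGO3, interval −0.00 to 0.36), with a median size of 0.06 among members and among all genes. The arrays did not overlap for 3 members, against 9.04% of all genes: AGO3 and BoYb were higher and Hen1 lower. AGO3 read 10.19, 10.02 and 10.19 in the OGA mutant and 9.98, 9.999 and 9.87 in wild type. For squ the difference was −0.07 with an interval of −0.32 to 0.17, so a fall of the size seen in the SXC mutant lies outside it.

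The comparison of the mutants with each other tested directly whether their effects differ. It shares the SXC arrays with the first comparison, so its calls do not add independent evidence. Here too 8 of 30 members changed, or 26.7% against 11.8% of all genes. The 5 that were higher in the OGA mutant (background 7.79%) were squ (log2 0.79, SE 0.11, 1.73-fold, limma adjusted p = 0.00225), fs(1)Yb (0.38, SE 0.07, adjusted p = 0.00714), krimp (0.38, SE 0.08, adjusted p = 0.0130), rhi (0.30, SE 0.08) and zuc (0.38, SE 0.10). The 3 that were lower (background 3.98%) were armi (−0.30, SE 0.07), Hen1 (−0.26, SE 0.07) and spn-E (−0.32, SE 0.09). Of the 8, 5 were also called in the SXC mutant against wild type; krimp, spn-E and Hen1 passed here and in neither comparison with wild type, and their OGA means lie on the far side of wild type from the SXC means. With quantile normalization 8 members were again called, 3 higher and 5 lower, of which 6 were the same: rhi (limma adjusted p = 0.0649) and zuc (0.0785) did not pass, and tapas (0.0474) and wde (0.0228) were lower in the OGA mutant. The arrays did not overlap for 17 members, against 30.2% of all genes.

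squ, fs(1)Yb and krimp passed in this comparison with any array left out. spn-E did not pass without SXC mutant replicate 1 (limma adjusted p = 0.0752), 2 (0.0538) or 3 (0.09996), OGA mutant replicate 2 (0.0715) or 3 (0.117), or wild type replicate 2 (0.0552). zuc did not pass without SXC mutant replicate 1 (0.128) or 2 (0.0747), OGA mutant replicate 2 (0.113) or wild type replicate 2 (0.0568). rhi did not pass without SXC mutant replicate 1 (0.0974) or 2 (0.0887) or OGA mutant replicate 1 (0.0675) or 3 (0.0963), Hen1 without SXC mutant replicate 1 (0.0904) or 3 (0.0672) or OGA mutant replicate 1 (0.0780) or 3 (0.0627), and armi without OGA mutant replicate 2 (0.0504) or 3 (0.0740) or SXC mutant replicate 3 (0.0641). tej was lower in the OGA mutant without SXC mutant replicate 2 (0.0301), and piwi was higher without SXC mutant replicate 3 (0.0249). The count was 4 without SXC mutant replicate 1 or OGA mutant replicate 3 (6.04% and 6.73% of all genes). Without OGA mutant replicate 2 it was 5 (8.01% of all genes).

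**Figure D5:**
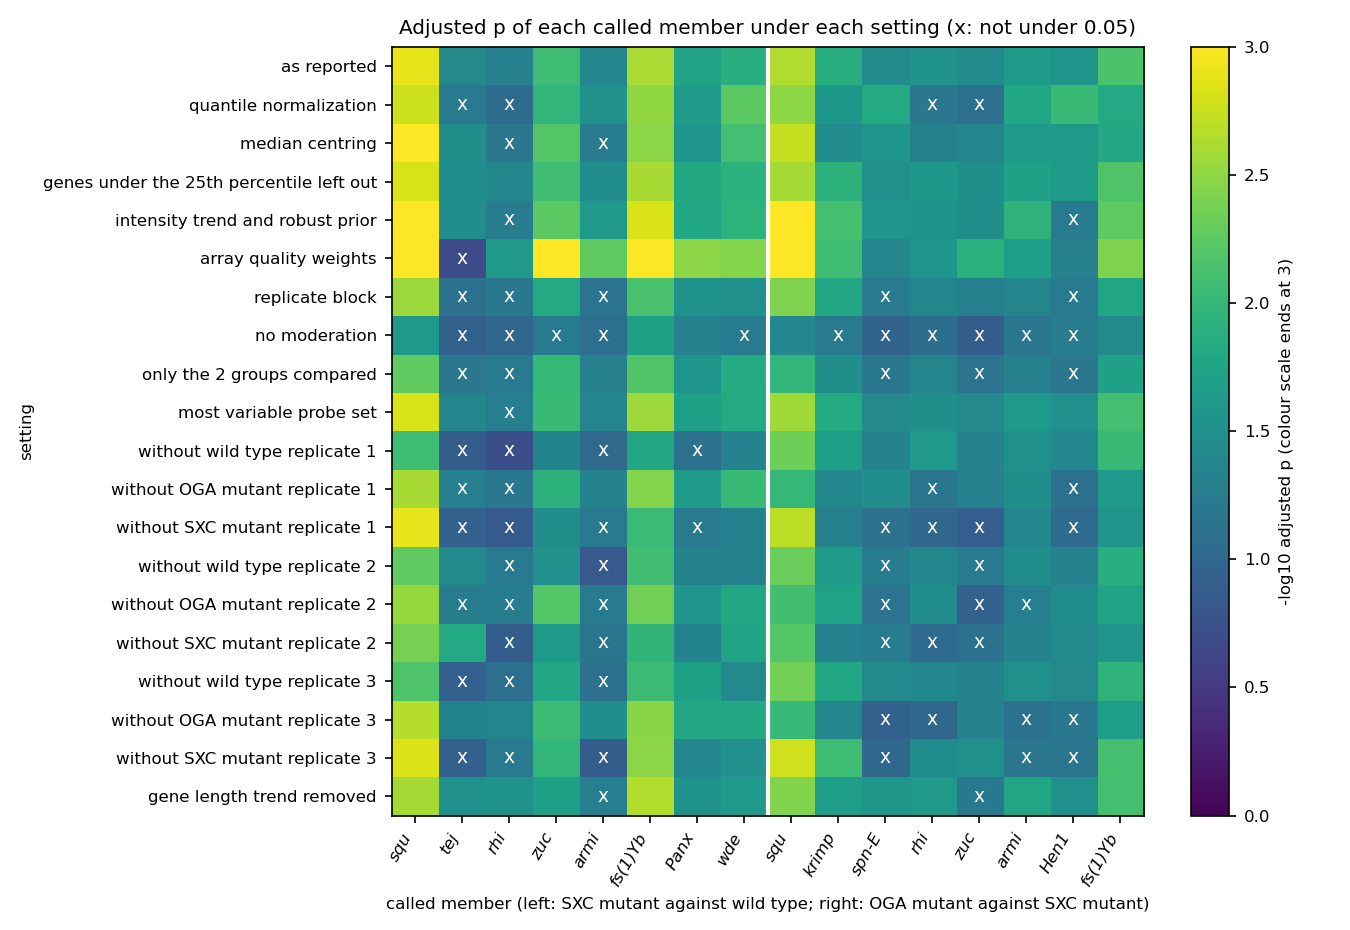
Adjusted p (colour, as −log10) of each called member (columns; left of the white line the SXC mutant against wild type, right of it the OGA mutant against the SXC mutant) under each setting (rows); a cross marks an adjusted p that is not under 0.05. The columns of squ and fs(1)Yb hold no cross, and that of rhi in the SXC mutant holds 15.

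A wider list of 47 partners of the pathway, of which 39 were measured, covered Piwi-loading chaperones, piRNA trimming, cluster transcript export, the SUMO and HP1 arms of silencing and the exon junction complex. In the SXC mutant 0 of 39 changed by limma, against 12.9% of all genes, and 5 (12.8%) had an unadjusted p under 0.05, against 26.1% of all genes. The median difference was −0.04. In the OGA mutant 0 changed and 0 had an unadjusted p under 0.05. Between the mutants 1 partner was called, Nxf3, the export factor that carries cluster transcripts out of the nucleus: 2.49-fold higher in the OGA mutant (log2 1.31, SE 0.36, adjusted p = 0.0358). Its OGA arrays read 7.98, 7.77 and 9.55, against 6.93 to 7.40 in the SXC mutant and 7.49 to 7.81 in wild type. The OGA values were widely spread (SD 0.97), with replicate 3 far above replicates 1 and 2, which lay near wild type. A dimmer probe set of Nxf3 gave 0.55 between the mutants. Among 10 measured genes listed for the microRNA and siRNA pathways, 1 changed in the SXC mutant, where 12.9% of all genes did. It was Cbp20, a cap-binding subunit, which fell (−0.22, SE 0.06, limma adjusted p = 0.0487). AGO1, AGO2 and Dcr-1 of that list were not analysed here.

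Some markers of cell types changed in the SXC mutant as well, and their part in the changes of the piRNA genes was not tested. Over all genes 5.09% rose and 7.84% fell, and for lists this short the counts below are only a description. Of 12 germline markers 3 rose and 0 fell: nanos (0.47, SE 0.08), grk (0.40, SE 0.07) and BicC (0.36, SE 0.09, limma adjusted p = 0.0241), of which nanos reached at most 5.11 and BicC 5.26. Their summed linear signal was 3552 to 3840 in wild type, 3903 to 4046 in the OGA mutant and 4390 to 4577 in the SXC mutant; without grk it was 1333 to 1559, 1474 to 1602 and 1457 to 1531. Of 12 follicle cell markers 1 rose, Fcp3C (0.70, SE 0.15), and the sums were 957 to 998 in wild type and 1009 to 1196 in the SXC mutant. Of 13 testis markers 2 changed (12.9% of all genes did), bol, which rose (0.35), and mia, which fell (−0.34), with sums of 1426 to 1552 and 1280 to 1410, and 7 of the 13 had mean signals under the highest control value. Among somatic markers the neuronal gene elav fell (−0.35, SE 0.10, 1 of 4) with sums of 557 to 607 and 495 to 536. The muscle gene up rose (0.43, SE 0.12, 1 of 4) with sums of 164 to 184 and 186 to 201. All 4 muscle genes had mean signals under 6, and up read only 4.77 to 5.61 over the 9 arrays. None of 4 fat body genes passed (sums of 526 to 629 and 623 to 700). Each sum is weighted to its brightest gene. In wild type mia read 9.97 in the testis list, with bol next at 7.49. In the neuron list elav read 8.28, with brp next at 7.33. In the OGA mutant 0 of the markers in all these lists changed by limma, and 3 had an unadjusted p under 0.05.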

How the data were processed

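The deposited table holds 1 log2 value per probe set and array (18952 probe sets, of which 183 are controls); the unit was read from the values, as the authors give none. Per the submitters' processing notes MAS5, RMA and Partek were used, with no role or version, and the sources used here name no genome build. All columns mapped to a sample (0 unmapped). Precision is limited by the small number of arrays.

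Probe sets with 1 listed gene (13647) were named through Entrez identifiers with RefSeq (Drosophila melanogaster Release 6 plus ISO1 MT); 402 with several genes and 4720 with none listed were left out. A gene took its probe set with the highest mean, which left 11982 genes; 2 members, qin and tapas, had 2 probe sets. Groups were compared with limma 3.58.1 in R 4.3.3, by group means over all 9 arrays (6 residual and 5.17 prior degrees of freedom; median SE 0.08); called means under 0.05 after Benjamini-Hochberg adjustment across all genes. The code was tested on simulated data. Intervals are 95% intervals of the moderated fit. The members, gene lists and tests were chosen with earlier results of these data known. Any member could be named; values of all arrays are given for members called in any comparison and for piwi, cuff, tapas and nxf2, the uncalled ones with the largest SXC differences. Partners were named where called, at most 6 a list, and changed markers up to 3 a list by smallest p. Further markers were named for their levels after their values were seen. No probe set was listed with a transposon gene (0), so transposon transcripts were not analysed here. The alternatives were other scalings, a filter on dim genes, another prior, no moderation, array weights, a replicate block, fits of only the groups compared, another probe set rule, each array left out, and, added after seeing the data, a gene length correction.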

Additional observations from a re-analysis of the deposited data

Results flagged for a closer look

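In 8 members the effects of the mutants differed, by the test of OGA mutant against SXC mutant (limma adjusted p under 0.05). That is 26.7% of the members, where 11.8% of all genes were called. The log2 differences, OGA minus SXC, were 0.79 for squ, 0.38 for krimp, 0.38 for fs(1)Yb, 0.38 for zuc, 0.30 for rhi, −0.26 for Hen1, −0.30 for armi and −0.32 for spn-E. For squ the OGA mutant differed from wild type by −0.07 and the SXC mutant by −0.87. For krimp these differences were 0.12 and −0.26, for Hen1 −0.13 and 0.13, and for spn-E −0.08 and 0.25, so that neither mutant alone passed against wild type. Groups of 3 arrays were not searched for outlying values.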

How the results depend on the processing

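Among the called members, 16 differences in 2 comparisons, none turned its direction in any of 19 alternatives. squ and fs(1)Yb passed in all of them in both comparisons. The 8 members changed in the SXC mutant became 5 with the replicate block (10.5% of all genes) and 3 with no moderation (6.84%). With an array left out they became 4 to 9 (5.54% to 14.6% of all genes). The 8 changed between the mutants became 2 with no moderation (3.83% of all genes) and 5 when only the arrays of those groups were fitted (7.88%). With an array left out they became 4 to 8 (6.04% to 11.1% of all genes). Among the other settings the counts were 6 to 10 and 6 to 9 (11.2% to 23.6% and 9.43% to 16.7% of all genes). Over all genes, the 1549 changed in the SXC mutant became 820 with no moderation, 2824 with array weights, and 664, 896, 984 and 1027 without wild type replicate 1, SXC mutant replicates 1 and 2, and wild type replicate 2. The 1410 changed between the mutants became 459 with no moderation, and 724, 793 and 806 without SXC mutant replicates 1 and 2 and OGA mutant replicate 3. Calls were gained too: in the SXC mutant by krimp and tapas (4 alternatives each), piwi, spn-E and nxf2 (1 each), and between the mutants by wde (2), Panx, piwi, tapas and tej (1 each). In the OGA mutant the count was 0 in every alternative. Array quality weights ended the SXC call of tej (limma adjusted p = 0.206). No moderation ended those of zuc (0.0597), wde (0.0601), armi (0.0798), rhi (0.102) and tej (0.118). Between the mutants it ended those of Hen1 (0.0549), krimp (0.0601), armi (0.0643), rhi (0.0834), spn-E (0.112) and zuc (0.131). Median centring ended the SXC calls of rhi and armi. Fits of only the groups compared ended the SXC calls of tej and rhi, and those of spn-E, zuc and Hen1 between the mutants. The other prior ended the SXC call of rhi and that of Hen1 between the mutants. The other probe set rule ended the SXC call of rhi, and the gene length correction that of zuc between the mutants. Whether replicate numbers pair the arrays could not be settled. Of 9 same-numbered pairs from different groups, 1 had deviations correlated above 0.1 (range −0.22 to 0.29). Differently numbered pairs ranged from −0.32 to 0.24. With 3 arrays a group, low correlations cannot exclude pairing. The replicate block ended the SXC calls of tej (adjusted p = 0.0751), rhi (0.0637) and armi (0.0716), and those of spn-E (0.0600) and Hen1 (0.0571) between the mutants. The signals of vas lie just above the non-fly controls, which limits any difference it could show.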
